A study of Mus musculus with 18 samples.

Results

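The 10 genes described here belong to the transforming growth factor beta (TGF-beta) and activin system and were followed across 6 groups of mouse cell libraries: the ligands Tgfb1, Tgfb2 and Tgfb3, the receptors Tgfbr1, Tgfbr2 and Tgfbr3, the activin beta chains Inhba and Inhbb, and the antagonists Fst and Grem1. They were taken by symbol, 10 of the 29112 genes in the deposited read-count table. The members were chosen by measured values as well as by name, with earlier results of these data known: Tgfb3 was selected on its roughly 20-fold lower level in the mimic control, and Inhbb and Grem1 on differences between groups. The values of those 3 genes are therefore a description with no test, as is every value of the mimic control set against untransfected high glucose cells. The other 7 genes entered by name.

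The libraries came from cells labelled HL-1, a mouse atrial cardiomyocyte line that grows indefinitely, with 3 libraries in each group. In 4 groups the cells were transfected in high glucose with HiPerFect and harvested 48 h later. They received a mimic of miR-200a-3p (a synthetic duplex that adds activity of this microRNA), the negative control of the mimic, an inhibitor of miR-200a-3p (an agent that blocks the microRNA), or the negative control of the inhibitor. Untransfected cells in high glucose and cells given vehicle completed the set. High glucose is thus shared by all groups but vehicle, and no transfected group without it was analysed. The study asked how miR-200a-3p shapes transcripts in a cell model of diabetic cardiomyopathy. The sources used here do not give the glucose concentrations, how long cells were kept in high glucose, or whether untransfected cells were exposed to HiPerFect. Between transfected and untransfected groups, the transfection, the reagent given and any difference in culture or handling cannot be told apart. Nor can reagent and handling be told apart between the mimic pair and the inhibitor pair. Nothing in the labels says that the libraries of a group were separate cultures, so p-values reflect only how these samples spread, and that spread may be technical.

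TGF-beta ligands are secreted in latent form, held by latency proteins in the matrix until released. The free ligand binds the type II receptor Tgfbr2, which recruits and phosphorylates the type I receptor Tgfbr1, and SMAD proteins then carry the signal to the nucleus. Tgfbr3, or betaglycan, is a co-receptor that presents ligand. Activins are dimers of the beta chains encoded by Inhba and Inhbb and signal through related receptors. Follistatin (Fst) binds and neutralises activins, and gremlin 1 (Grem1) binds bone morphogenetic proteins (BMPs). In the heart the system is known for its part in fibrosis and remodelling.

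Depth was even, from 33655916 to 37928790 counted reads per library. On log2 CPM over the tested genes the libraries formed 3 clusters: mimic with its control, inhibitor with its control, and the 2 untransfected groups together. Across genes, libraries of a cluster correlated at 0.98 or above, and those of different clusters at 0.963 or below. Of the 15074 genes tested, 78.9% differed between the mimic control and untransfected high glucose cells at an adjusted p under 0.05 in edgeR (39% higher and 39.9% lower in the mimic control). Of 13 atrial cardiomyocyte markers 11 were listed, and 3 or 4 of these averaged at least 1 CPM (counts scaled to library size) in each group. Nppa had at most 1 read in a library and Myh6 at most 7, whereas Tnnt2 ranged from 14.2 to 79.3 CPM and Gata4 from 8.31 to 13.1 CPM. The atrial list summed to 33.96 to 35.9 CPM in mimic libraries, 30.1 to 32.0 in mimic control, 82.9 to 94.0 in inhibitor, 75.1 to 94.2 in inhibitor control, 53.6 to 70.0 in high glucose and 57.4 to 59.2 in vehicle libraries. Summed over 10 fibroblast markers, the level in CPM was 1054 to 1095 in mimic libraries, 1064 to 1098 in mimic control, 2439 to 2565 in inhibitor, 2477 to 2614 in inhibitor control, 10970 to 12110 in high glucose and 10600 to 10880 in vehicle libraries. Col3a1 was the largest part of each sum, with 541.6 to 1662 CPM in the transfected libraries and 8886 to 9765 CPM in the untransfected ones. In every group 6 to 8 of these 10 markers averaged at least 1 CPM, and Lum and Tcf21 were at or near 0. The 8 skeletal myoblast markers summed to 1289 to 1478 CPM in the transfected libraries and 4681 to 6283 CPM in the untransfected ones; 3 of the 8 reached 1 CPM in the mimic pair and 6 or 7 elsewhere. That sum was mostly Des, at 1102 to 1347 CPM in transfected and 4550 to 6099 CPM in untransfected libraries. Other markers of that list did not follow it: Myf5 had 52.7 to 57.1 CPM in the inhibitor pair, 8.83 to 13.2 in the mimic pair and 8.03 to 17.6 in untransfected libraries, and Chrna1 lay between 101.9 and 133.6 CPM in all. The sum over 9 epithelial markers moved within clusters. Vehicle libraries held 252.1 to 278.3 CPM of it, whereas the high glucose range was lower, at 118.7 to 136.4. Mimic libraries held 97.91 to 114.2, below their control at 148.1 to 156.7. The inhibitor (138.7 to 175.0) and its control (165.8 to 185.0) overlapped. Krt19 was the largest part of each of these sums, and 2 of the 9 markers averaged at least 1 CPM in each group. The part of these lists in the levels below was not tested. The identity of the cells rests on the label and was not tested either. In bulk RNA, fewer cells of a type and less RNA per cell cannot be told apart. One library stood apart within its group: in mimic replicate 2 the 14 macrophage markers summed to 1273 CPM, whereas their sum in the remaining libraries was 36.8 to 68.7 CPM, with Lyz2 at 29847 reads and Csf1r at 1820; 12 of the 14 averaged at least 1 CPM in the mimic group and 4 to 6 in the others. For the 10 genes and the total of pathway genes called, results that use the mimic group are given with and without it where it moves them. All comparisons share 1 fit, so leaving it out also moved adjusted p-values elsewhere. In high glucose minus vehicle the edgeR adjusted p of Tgfbr1 was 1.10e-05 without it and 0.00138 with it. The calls of the 7 genes that entered by name stayed the same in that comparison. Values of single pathway lists and single pathway genes are given with this library included only.

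The ligand genes were much lower in every transfected group than in either untransfected group, and the 3 ligands did not scale together. Per transcript length, the summed level of Tgfb1, Tgfb2 and Tgfb3 was 11.1 ± 0.34 FPKM (fragments scaled to transcript length and library size; mean ± SD, n = 3) in mimic libraries, 10.6 ± 0.22 FPKM in the mimic control, 11.6 ± 0.42 FPKM under the inhibitor, 11.8 ± 0.18 FPKM in the inhibitor control, 103.9 ± 4.0 FPKM in high glucose and 113.3 ± 2.5 FPKM in vehicle. The sums of the 4 transfected groups lay close together, but they were made of different genes. Tgfb3 was 29.1% of the sum in mimic and 30.8% in mimic control libraries, 58.9% in inhibitor and 59.1% in inhibitor control libraries, 68.8% in high glucose and 72.4% in vehicle. Tgfb1 was the most abundant of the ligands per length in the mimic pair only, at 6.20 ± 0.29 FPKM under the mimic and 5.81 ± 0.41 FPKM in its control. In the other groups Tgfb3 led. The shares depend on the unit. Of the summed CPM, Tgfb3 was 21.1% in mimic, 22.4% in mimic control, 48.3% in inhibitor and 48.4% in inhibitor control libraries. It was 58.4% of that sum in high glucose and 62.8% in vehicle. Since Tgfb3 was chosen for its level and is the largest part of the untransfected sums, these sums and shares are a description.

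**Figure D1:**
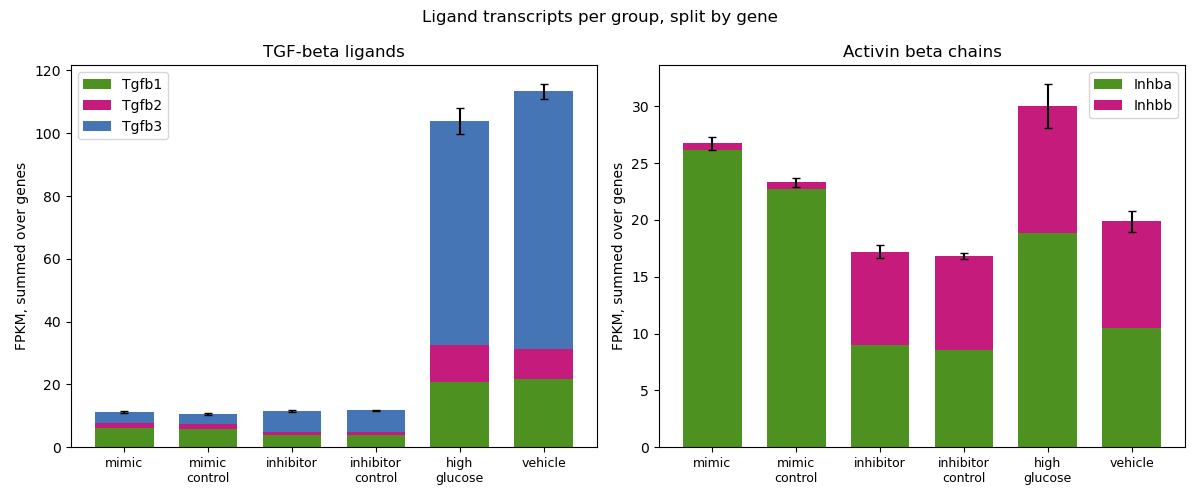
Summed FPKM of the TGF-beta ligand genes (left) and of the activin beta chain genes (right) per group, as stacked bars of the group means with the SD of the sum over 3 libraries. The ligand sums stand near 11 FPKM in the transfected groups and above 100 in the untransfected ones, and Inhbb nearly disappears from the activin sum in the mimic and mimic control groups. Tgfb3 and Inhbb were chosen for differences between groups, so the bars are a description.

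Tgfb3 (chr12:86102756-86126301, minus strand, GRCm39 here and for the genes below) encodes the ligand best known for palate development. Its level was 11.4, 11.4 and 12.03 CPM in the mimic libraries, against 11.8, 11.8 and 13.5 CPM in the mimic control (CPM here and below are scaled by TMM). Under the inhibitor it was 22.8, 23.0 and 24.4 CPM, against 23.6, 23.4 and 24.9 CPM in the inhibitor control. High glucose libraries held 245.8, 249.3 and 226.9 CPM, against 284.4, 265.0 and 274.8 CPM in vehicle. The ranges of each reagent and its own control overlapped, and the 3 clusters did not. Between the highest and the lowest group mean the ratio was 23.6, the widest of the 10 genes. The mimic control was 19.5-fold lower than high glucose (log2 fold change -4.28 ± 0.060, SE), which is the value that chose the gene. Set against the same high glucose libraries, the inhibitor control differed by -3.33 on the log2 scale. The Tgfb3 exons overlap Ttll5 on the opposite strand, and the sources used here do not say whether counting used the strand. Ttll5 had 1137 to 1234 reads in mimic control libraries and 2449 to 2501 in high glucose, so its own counts also differed, by far less than those of Tgfb3.

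Tgfb1 (chr7:25386390-25404506, plus strand) encodes the ligand most studied in fibrosis. It lay at 32.7, 34.3 and 32.6 CPM under the mimic, against 34.2, 33.9 and 30.04 CPM in the mimic control. Inhibitor libraries held 18.5, 19.8 and 19.6 CPM, against 21.2, 18.9 and 18.4 CPM in the inhibitor control. In high glucose the level was 112.5, 109.0 and 92.8 CPM, against 116.0, 99.3 and 112.7 CPM in vehicle. Ranges overlapped within each of these pairs. No difference was called between mimic and control (log2 fold change 0.021, 95% interval -0.14 to 0.18, edgeR adjusted p = 0.872) or between high glucose and vehicle (-0.062, interval -0.21 to 0.087, edgeR adjusted p = 0.592). The inhibitor control was 5.37-fold lower than high glucose (log2 fold change -2.42 ± 0.079, edgeR adjusted p = 2.83e-16), lower in all 3 libraries.

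Tgfb2 (chr1:186354985-186438294, minus strand), a ligand with known roles in the developing heart, showed the same separation of transfected and untransfected cells with a small rise under high glucose. It stood at 10.2, 10.2 and 10.3 CPM under the mimic, against 10.4, 10.1 and 9.92 CPM in the mimic control. Inhibitor libraries had 5.21, 5.78 and 6.36 CPM, against 5.43, 6.23 and 6.47 CPM in the inhibitor control. In high glucose it had 64.8, 66.5 and 69.3 CPM, against 54.8, 53.2 and 53.4 CPM in vehicle. All 3 high glucose libraries were above all 3 vehicle libraries (log2 fold change 0.31 ± 0.056, edgeR adjusted p = 0.000369). Relative to high glucose, the inhibitor control was 11.1-fold lower (log2 fold change -3.47 ± 0.067, edgeR adjusted p = 1.85e-19). Between the 2 negative controls, inhibitor control minus mimic control, Tgfb1 and Tgfb2 differed by nearly the same amount: -0.75 ± 0.080 for Tgfb1 (edgeR adjusted p = 5.29e-08) and -0.75 ± 0.072 for Tgfb2 (edgeR adjusted p = 1.14e-08) on the log2 scale. Tgfb3 differed the other way, by 0.96 ± 0.061.

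Tgfb1 and Tgfb2 were among the genes lower in every transfected group, as were Tgfb3, Tgfbr2 and Tgfbr3. The promoters of Tgfb1 and Tgfb2 are shown from the RefSeq promoter table, which is on GRCm38.p6 and not on the build of the counts. Each runs for 300 bases, from 250 before the transcript start to 50 after it. Of the 10 genes 7 matched an entry, and Tgfb3, Tgfbr3 and Fst did not. Capitals mark a TATA box (TATAAA) and an E-box (CACGTG), searched on both strands along with an AP-1 site (TGANTCA), a CRE core (TGACGT) and a SMAD box (CAGAC).
Tgfb2 promoter, GRCm38.p6 chr1:186705940-186706239, minus strand: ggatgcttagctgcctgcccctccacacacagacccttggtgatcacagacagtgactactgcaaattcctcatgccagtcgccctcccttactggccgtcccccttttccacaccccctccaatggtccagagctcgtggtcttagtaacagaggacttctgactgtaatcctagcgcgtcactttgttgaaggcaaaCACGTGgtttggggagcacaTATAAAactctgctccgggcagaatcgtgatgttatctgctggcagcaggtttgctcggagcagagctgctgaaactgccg
Tgfb1 promoter, GRCm38.p6 chr7:25686752-25687051, plus strand: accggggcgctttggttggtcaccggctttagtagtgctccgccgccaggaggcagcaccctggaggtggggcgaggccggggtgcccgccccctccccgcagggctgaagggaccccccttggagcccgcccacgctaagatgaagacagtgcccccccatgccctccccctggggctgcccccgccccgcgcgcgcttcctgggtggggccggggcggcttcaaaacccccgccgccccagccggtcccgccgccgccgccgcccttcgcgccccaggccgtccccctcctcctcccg
The Tgfb2 window held TATAAA with its first base at -31 and CACGTG at -51 from the start, plus CAGAC at -221 and -204. The Tgfb1 window is rich in G and C and held none of the 5 motifs. Of all 32851 promoters in the table, 13.6% held TATAAA, 7.15% CACGTG, 7.81% TGANTCA, 7.51% TGACGT and 49.6% CAGAC. A match describes letters in a window and not a bound site.

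Among the receptors, Tgfbr1 (chr4:47353134-47414931, plus strand) was the one that was higher in the transfected groups than in untransfected cells; Tgfbr2 and Tgfbr3 were lower in the transfected groups. With the mimic and with high glucose it rose, as Tgfbr3 did. The mimic libraries had 12.6, 18.2 and 12.8 CPM of Tgfbr1, against 10.1, 9.73 and 9.61 CPM in the mimic control. Inhibitor libraries had 18.5, 18.2 and 17.96 CPM, against 17.2, 17.6 and 18.7 CPM in the inhibitor control. Untransfected high glucose cells had 6.50, 7.54 and 8.09 CPM, against 4.91, 5.19 and 4.87 CPM in vehicle. All 3 mimic libraries exceeded all 3 of the mimic control, with replicate 2 well above the other two. The mimic raised Tgfbr1 by 0.57 ± 0.11 on the log2 scale (edgeR adjusted p = 0.000566, higher in 3 of 3 libraries). Without replicate 2, the library with macrophage transcripts, the difference was 0.37 (edgeR adjusted p = 0.00169). High glucose raised it by 0.56 ± 0.12 over vehicle (edgeR adjusted p = 0.00138), and the inhibitor control stood 1.27 ± 0.11 above high glucose (edgeR adjusted p = 1.12e-09).

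Tgfbr2 (chr9:115913361-116004800, minus strand), the type II receptor, was the most abundant receptor gene per length in every group, at 59.8% to 80.9% of the summed receptor FPKM. It was at 38.9, 42.9 and 40.4 CPM under the mimic, against 41.9, 41.5 and 40.4 CPM in the mimic control. Inhibitor libraries had 78.5, 79.0 and 79.2 CPM, against 81.0, 82.2 and 81.5 CPM in the inhibitor control. In high glucose the level was 108.1, 111.8 and 119.3 CPM, against 153.8, 151.8 and 150.7 CPM in vehicle. The high glucose libraries were all below the vehicle libraries, a fall of 0.43 ± 0.043 on the log2 scale (log2 fold change -0.43, edgeR adjusted p = 4.51e-07). The inhibitor control was lower than high glucose, with a log2 fold change of -0.47 ± 0.043 (edgeR adjusted p = 3.94e-09). The mimic did not change Tgfbr2 detectably (log2 fold change -0.019, 95% interval -0.11 to 0.077, edgeR adjusted p = 0.797). Tgfbr1 was 26.5% of the summed receptor FPKM in mimic and 20.3% in mimic control libraries, 19.6% in inhibitor and 18.8% in inhibitor control libraries, 5.84% in high glucose and 3.33% in vehicle. The mimic share was 24.5% without replicate 2, the library with macrophage transcripts, in which it was 30.4%.

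Tgfbr3 (chr5:107249402-107437623, minus strand) encodes betaglycan. Its level was 7.44, 7.35 and 7.52 CPM in mimic libraries, against 6.07, 5.34 and 5.44 CPM in the mimic control. With the inhibitor it was 12.3, 11.6 and 11.5 CPM, against 11.2, 11.8 and 12.3 CPM in the inhibitor control. High glucose libraries had 25.5, 28.2 and 31.3 CPM, against 24.3, 24.8 and 22.2 CPM in vehicle. All mimic libraries lay above all mimic control libraries, and the 2 inhibitor groups overlapped. The mimic raised Tgfbr3 by 0.40 ± 0.085 on the log2 scale (edgeR adjusted p = 0.00137), and the value was 0.40 without replicate 2 as well. High glucose raised it by 0.25 ± 0.069 (edgeR adjusted p = 0.0106). That call was lost without vehicle replicate 3 (edgeR adjusted p = 0.0619) or high glucose replicate 3 (edgeR adjusted p = 0.0781). The inhibitor control was lower than high glucose by -1.27 ± 0.072 on the log2 scale (edgeR adjusted p = 2.22e-12).

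**Figure D2:**
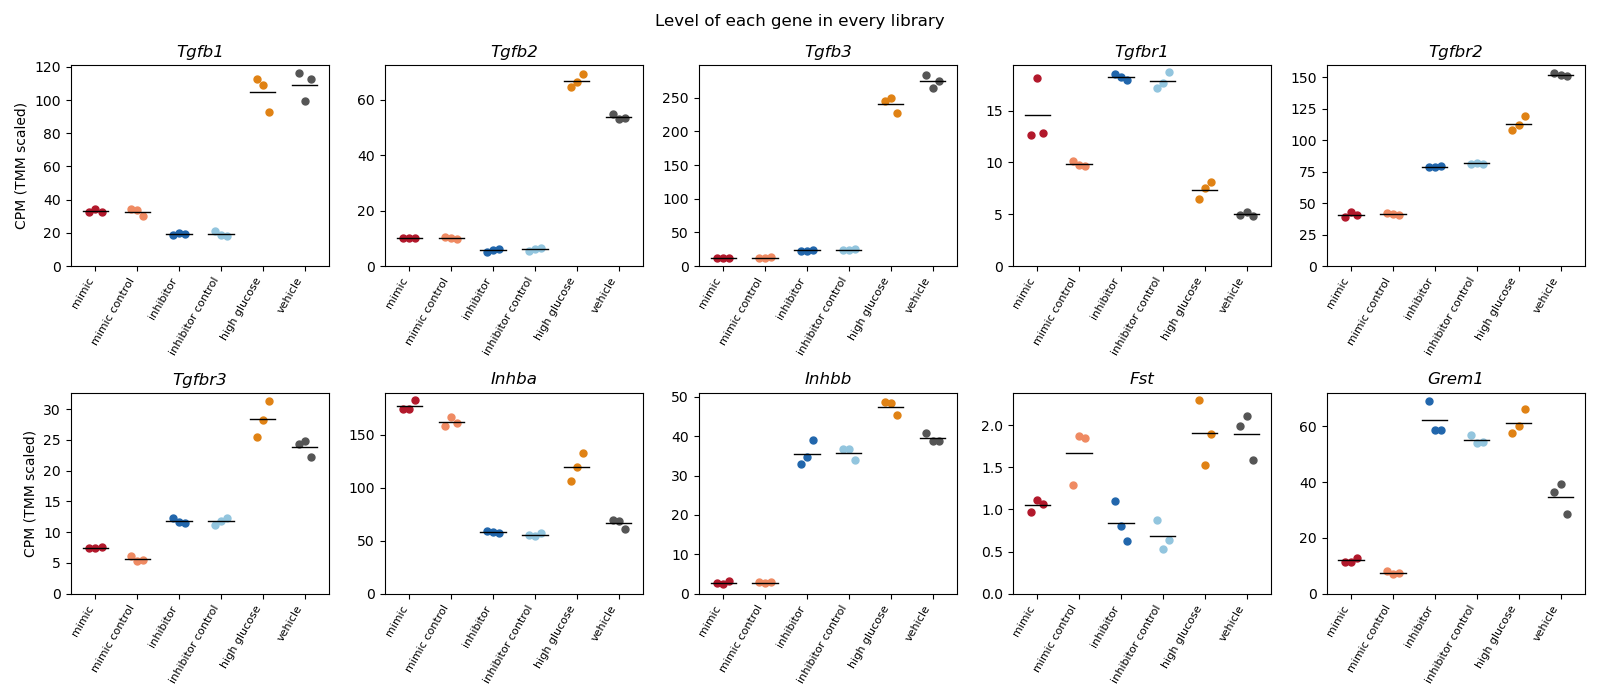
Level of each gene in CPM scaled by TMM, on linear axes that start at 0 and differ between panels; points are libraries and lines the group means. Tgfb1, Tgfb2 and Tgfb3 sit low in all transfected groups, Inhbb and Grem1 are lowest in the mimic and mimic control groups, and Tgfbr1 is lowest in vehicle.

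The beta chains of activin A and activin B behaved differently from each other. Inhba, which makes activin A, was highest in the mimic pair, whereas Inhbb, which makes activin B, was lowest there. Inhbb was chosen for its differences between groups, so this contrast is a description with no test. Inhba (chr13:16186373-16206206, plus strand) stood at 174.2, 174.3 and 183.2 CPM under the mimic, against 158.7, 166.4 and 161.5 CPM in the mimic control. Inhibitor libraries had 58.8, 58.6 and 57.5 CPM, against 55.2, 54.7 and 57.2 CPM in the inhibitor control. Under high glucose Inhba was at 106.7, 119.4 and 133.2 CPM, against 69.4, 68.3 and 61.1 CPM in vehicle. High glucose thus raised Inhba 1.81-fold (log2 fold change 0.85 ± 0.063, edgeR adjusted p = 1.02e-08), the largest change among the 7 genes tested in that comparison. The mimic libraries were all above their control by a small margin that was not called (log2 fold change 0.13, 95% interval -0.0001 to 0.26, edgeR adjusted p = 0.117). It was called with upper quartile scaling (edgeR adjusted p = 0.0452), in a fit of the compared groups alone (edgeR adjusted p = 0.0185) and with limma on log2(FPKM + 1) (adjusted p = 0.0276) or log2(FPKM + 0.1) (adjusted p = 0.0282). In the inhibitor control Inhba was 2.15-fold lower than in high glucose (log2 fold change -1.10 ± 0.064, edgeR adjusted p = 2.45e-12) and 2.91-fold lower than in the mimic control (log2 fold change -1.54 ± 0.064, edgeR adjusted p = 4.03e-14).

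Inhbb (chr1:119343193-119350021, minus strand) had 2.68, 2.54 and 3.15 CPM in mimic libraries, against 2.85, 2.64 and 2.84 CPM in the mimic control. With the inhibitor it had 32.9, 34.8 and 39.0 CPM, against 36.6, 36.8 and 34.1 CPM in the inhibitor control. In high glucose it had 48.7, 48.4 and 45.5 CPM, against 40.9, 38.9 and 38.9 CPM in vehicle. Each reagent overlapped its own control, and the mimic pair lay far below the other 4 groups. The mimic control was 17.1-fold lower than high glucose, a log2 fold change of -4.09 ± 0.082. The inhibitor control was 1.33-fold lower than high glucose and 12.9-fold higher than the mimic control. Per length, Inhbb was 2.31% of the summed beta chain FPKM under the mimic and 2.51% in its control, 47.8% under the inhibitor and 49.1% in its control, 37.5% in high glucose and 47.3% in vehicle. The sum itself stayed within 16.8 to 30.1 FPKM over the 6 groups.

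Fst (chr13:114588731-114595521, minus strand), the activin antagonist, was scarce, with 19 to 81 reads per library. Mimic libraries had 34, 38 and 37 reads of Fst, against 45, 59 and 60 reads in the mimic control. Inhibitor libraries had 40, 30 and 22 reads, against 31, 19 and 22 reads in the inhibitor control. High glucose libraries had 81, 53 and 70 reads, against 73, 80 and 56 reads in vehicle. Only in the mimic pair were the ranges apart among these 3 pairs. Fst fell with the mimic by a log2 fold change of -0.67 ± 0.23 (95% interval -1.15 to -0.19, edgeR adjusted p = 0.0303). The call was lost with limma on log2(FPKM + 1) (adjusted p = 0.0744) or log2(FPKM + 0.1) (adjusted p = 0.0768) and in edgeR without mimic replicate 1 (adjusted p = 0.0741) or 3 (adjusted p = 0.0528), or mimic control replicate 2 (adjusted p = 0.0980) or 3 (adjusted p = 0.0971). At this depth no difference was detectable between inhibitor and its control (log2 fold change 0.31, 95% interval -0.21 to 0.84). The inhibitor control was 2.80-fold lower than high glucose (log2 fold change -1.48 ± 0.24, edgeR adjusted p = 1.01e-05).

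Grem1 (chr2:113576509-113589000, minus strand), the BMP antagonist, was low in the mimic pair and averaged 55.0 to 62.2 CPM in the inhibitor pair and in high glucose. Its level was 11.5, 11.5 and 12.8 CPM under the mimic, against 7.94, 7.03 and 7.57 CPM in the mimic control. Inhibitor libraries had 68.9, 58.8 and 58.7 CPM, against 57.0, 53.9 and 54.2 CPM in the inhibitor control. High glucose libraries had 57.4, 60.2 and 66.0 CPM, against 36.5, 39.2 and 28.7 CPM in vehicle. The mimic, inhibitor and high glucose libraries each lay wholly above those of their own control or of vehicle. The log2 differences were 0.67 ± 0.11 for mimic minus mimic control, 0.18 ± 0.087 for inhibitor minus inhibitor control and 0.81 ± 0.088 for high glucose minus vehicle. The mimic control was 8.13-fold lower than high glucose, and the inhibitor control 7.32-fold higher than the mimic control. Since Grem1 was chosen for differences between groups, all these values are a description with no test.

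Counted by comparison, high glucose changed 5 of the 7 genes that entered by name, where 24.2% of all tested genes were called. Tgfb2, Tgfbr1, Tgfbr3 and Inhba rose and Tgfbr2 fell, and the median log2 fold change of the 7 was 0.25, beside -0.0048 over all genes. The mimic changed 3 of the 7, Tgfbr1 and Tgfbr3 upward and Fst downward, where 33.7% of all tested genes were called, and their median was 0.021, beside 0.0046 over all genes. The count was also 3 without mimic replicate 2. The inhibitor changed none of the 7 by edgeR, none by DESeq2 and none at an unadjusted p under 0.05 (0 of 7), where 0% of all tested genes were called. The median of the 7 was 0.0033, beside -0.0004 over all genes. The inhibitor control differed from high glucose in 7 of 7, with 1 higher and 6 lower, where 79.5% of all tested genes were called. Relative to the mimic control it differed in 7 of 7, with 3 higher and 4 lower, where 74.2% were called (38.5% higher, 35.7% lower). The receptors were the 3 higher ones, by 0.86 for Tgfbr1, 0.98 for Tgfbr2 and 1.07 for Tgfbr3 on the log2 scale. In the mimic control set against high glucose, the comparison that chose the list and is described with no test, the log2 fold change was 0.41 for Tgfbr1 and 0.44 for Inhba, and it was negative for the others, from -0.19 for Fst to -4.28 for Tgfb3. High glucose libraries are shared by the comparisons with vehicle and with both negative controls.

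**Figure D3:**
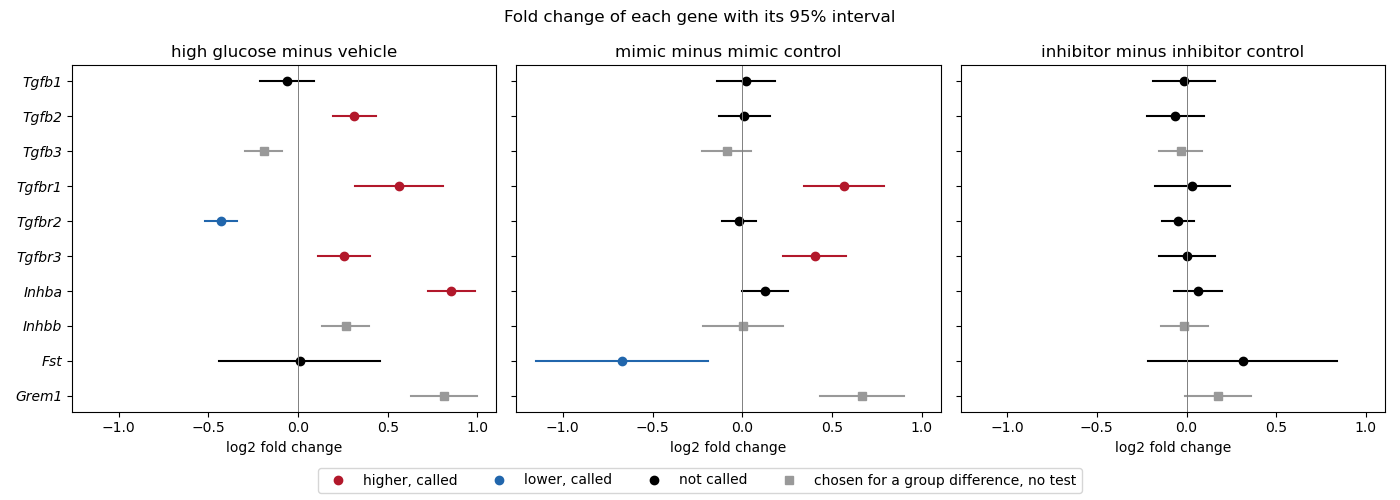
Log2 fold change of each gene with its 95% interval in high glucose minus vehicle, mimic minus mimic control and inhibitor minus inhibitor control; colour shows an edgeR adjusted p under 0.05, and grey squares are the 3 genes with no test. The intervals of the grey squares are a description and not a test, because these genes were chosen for differences between groups. Inhba at 0.85 has the largest change called with high glucose, Tgfbr1 at 0.57 with Tgfbr3 at 0.40 rise with the mimic, and none is called with the inhibitor.

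Set against the effect of the inhibitor, the effect of the mimic differed for 2 of the 7 genes, both higher, where 13.2% of all tested genes were called (4.63% higher, 8.59% lower). It was 0.53 ± 0.15 for Tgfbr1 (edgeR adjusted p = 0.0220) and 0.40 ± 0.11 for Tgfbr3 (edgeR adjusted p = 0.0257) on the log2 scale. Without mimic replicate 2 the values were 0.33 for Tgfbr1 (edgeR adjusted p = 0.0407) and 0.40 for Tgfbr3 (edgeR adjusted p = 0.0484). No call was left for Tgfbr1 without inhibitor control replicate 3 (adjusted p = 0.0618) or mimic control replicate 3 (adjusted p = 0.0519). Tgfbr3 lost its call without either of these, and also without inhibitor replicate 2 or 3, mimic replicate 3 or mimic control replicate 2, with edgeR adjusted p of 0.0510 to 0.0728, and with limma on log2(FPKM + 1) (adjusted p = 0.0850). The effects on Fst differed by -0.98 (edgeR adjusted p = 0.0628), which was not called, though it was without inhibitor replicate 3 (adjusted p = 0.0440), inhibitor control replicate 1 (adjusted p = 0.0330) or mimic control replicate 1 (adjusted p = 0.0445).

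The genes were searched for sites of the microRNA itself. The mature miR-200a-3p is shown with its seed, bases 2 to 8, in capitals, beside miR-141-3p, which has the same seed (both from RefSeq, GRCm38.p6).
mmu-miR-200a-3p: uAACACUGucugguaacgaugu
mmu-miR-141-3p: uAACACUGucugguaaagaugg
A site is a match in the annotated 3′ untranslated region to CAGTGTTA (8mer), CAGTGTT (7mer-m8) or AGTGTTA (7mer-A1) on the transcript strand. Of the 10 genes, 7 held at least 1 site, and Tgfb1, Tgfb3 and Grem1 held none. Any site was present in 27.5% of 12905 tested genes with such a region, and an 8mer in 5.31%. Longer regions hold sites more often. Among tested genes of like length, where the shorter region was at least 0.8 times the longer, a site was present in 69.6% for Tgfbr2, 60.2% for Inhba, 56.5% for Tgfbr1, 48.6% for Tgfbr3, 43.7% for Tgfb2, 30.7% for Inhbb and 8.46% for Fst. For the genes without a site that share was 51.3% for Grem1, 29.2% for Tgfb3 and 1.89% for Tgfb1. Tgfbr3 was the single gene of the 10 with an 8mer. The windows below (GRCm39, transcript strand, site in capitals) are from the genes called with the mimic, and from Tgfb2 as a gene with sites that was not called.
Tgfbr3 8mer, chr5:107256393-107256422, minus strand: cagtgactcttCAGTGTTAaaactgaaccc
Tgfbr3 7mer-m8, chr5:107255270-107255299, minus strand: agctcttgttaCAGTGTTtctgactgcttc
Tgfbr1 7mer-m8, chr4:47411816-47411845, plus strand: tttgatcaaagCAGTGTTttgttttgtttt
Fst 7mer-m8, chr13:114589924-114589953, minus strand: ccaccaatgttCAGTGTTgacatagccttt
Tgfb2 7mer-m8, chr1:186357521-186357550, minus strand: ttttgattcatCAGTGTTtaaaaaaaaaaa
The Tgfbr3 sites lie in exon 17 of 17, the Tgfbr1 site shown in exon 9 of 9, the Fst site in exon 6 of 6 and the Tgfb2 site shown in exon 7 of 7, each in the 3′ untranslated region. Tgfbr1 held a further site that is not shown, a 7mer-A1 at base 3780 of a region of 4154 bases. The Fst site starts at base 17 of a region of 453 bases. With the mimic, Tgfbr3 and Tgfbr1 were higher and Fst was lower. Tgfb2, with 3 sites, had a log2 fold change of 0.012 (95% interval -0.13 to 0.16, edgeR adjusted p = 0.919), and Inhba, also with 3 sites, one of 0.13 (not called). A match describes letters in the region, and binding was not measured.

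Around the 10 genes, 118 further genes of the pathway were listed, of which 89 were tested. The lists held latency and activation proteins, SMAD proteins and their regulators, target genes of TGF-beta, activin-related genes, and BMP ligands, antagonists and targets. The mimic raised 12 and lowered 27 of the 89, against 15.8% of all tested genes higher and 18% lower. Without mimic replicate 2 the calls numbered 37 in place of 39. The single lists and genes below are given with that library included. High glucose raised 10 and lowered 17, beside 12% and 12.2% of all genes. No gene of the lists was called with the inhibitor by edgeR, DESeq2 or limma, and 6 of 89 had an unadjusted p under 0.05 in edgeR, beside 447 of all 15074 tested genes (2.97%). In the inhibitor control 14 were higher and 59 lower than in high glucose, beside 40.1% and 39.3% of all genes. The medians over the 89 were -0.051 with the mimic, -0.021 with high glucose and -0.65 in the inhibitor control, where the medians over all genes were 0.0046, -0.0048 and 0.035.

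Latency and activation proteins were the list with the highest share called under the mimic, 11 of 16 (4 higher, 7 lower), or 68.8% beside 33.7% of all tested genes. Ltbp1, which tethers latent TGF-beta to the matrix, fell to 76.0 CPM under the mimic, against 110.5 CPM in its control (log2 fold change -0.54 ± 0.056, edgeR adjusted p = 2.64e-06). Furin, the protease that cleaves the ligand precursors, fell too, with 37.98 CPM against 48.6 CPM in the control (log2 fold change -0.35, edgeR adjusted p = 3.06e-05). Integrin chains that release latent ligand went the other way: Itgav had 45.4 CPM under the mimic against 34.8 CPM in its control (0.38, edgeR adjusted p = 0.000679), and Itgb3 had 47.6 CPM against 37.6 CPM (0.34, edgeR adjusted p = 0.000271). In the inhibitor control 14 of the 16 (87.5%, beside 79.5% of all tested genes in either direction) were lower than in high glucose and none was higher. Itgb3 stood at 25.9 CPM there, against 273.7 CPM in high glucose (log2 fold change -3.40, edgeR adjusted p = 6.85e-20), and the latency protein gene Ltbp3 at 79.8 CPM, against 367.5 CPM (-2.20, edgeR adjusted p = 9.86e-17). With high glucose Itgav rose by 0.62 (edgeR adjusted p = 1.72e-06), and Itgb3 fell by 0.29 (log2 fold change -0.29, edgeR adjusted p = 0.000589).

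Of 22 tested TGF-beta target genes, the mimic raised 3 and lowered 8 (50% called, beside 33.7% of all). Skil, a SMAD corepressor and target, rose by 0.46 (edgeR adjusted p = 0.000193), while Cdkn1a, a cell cycle inhibitor, fell by 0.61 (log2 fold change -0.61, edgeR adjusted p = 4.03e-07) and Acta2, smooth muscle actin, fell by 0.44 (log2 fold change -0.44, edgeR adjusted p = 1.32e-05). With high glucose 3 rose and 5 fell (36.4%, beside 24.2% of all). Col1a2, a collagen gene, rose by 0.51 (edgeR adjusted p = 7.00e-06), whereas Klf10 fell by 0.75 (log2 fold change -0.75, edgeR adjusted p = 6.47e-06) and Pmepa1, which dampens SMAD signals, fell by 0.57 (log2 fold change -0.57, edgeR adjusted p = 0.00019). In the inhibitor control, 6 were higher and 14 lower than in high glucose (90.9%, beside 79.5% of all): Col3a1, a collagen chain, stood at 1550 CPM there, against 9169 CPM in high glucose (log2 fold change -2.56, edgeR adjusted p = 2.42e-19), and Tagln, an actin-binding protein of smooth muscle, at 21.2 CPM against 2.12 CPM (3.32, edgeR adjusted p = 3.74e-16). The list was thus mixed in direction in every comparison with calls described here.

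Of 17 SMAD proteins and regulators, 3 rose and 5 fell with the mimic (47.1%, beside 33.7% of all). Smad7, the inhibitory SMAD, fell by 0.25 (log2 fold change -0.25, edgeR adjusted p = 0.0183), and Ski, a corepressor, fell by 0.24 (log2 fold change -0.24, edgeR adjusted p = 0.000295). Relative to high glucose the inhibitor control had 6 higher and 6 lower (70.6%, below the 79.5% of all). Smad3, a SMAD that Tgfbr1 phosphorylates, was at 25.4 CPM in the inhibitor control, against 102.5 CPM in high glucose (log2 fold change -2.01, edgeR adjusted p = 2.45e-18). Among 14 tested activin-related genes the mimic raised 2 and lowered 3, a share of 35.7% that is near the 33.7% of all tested genes. They included Fstl3, a follistatin relative, at 12.2 CPM under the mimic against 16.4 CPM in its control (-0.42, edgeR adjusted p = 0.000131), and the type II receptor Acvr2a, at 8.18 CPM against 6.50 CPM (0.33, edgeR adjusted p = 0.0159). For the BMP arm that Grem1 antagonises, the mimic raised no tested ligand or receptor and lowered 2 of 10 (20%). Among 7 other BMP antagonists it raised none and lowered 2 (28.6%). Of all tested genes 33.7% were called with the mimic, 15.8% higher and 18% lower. Bmp4, a BMP ligand, was at 12.1 CPM in the inhibitor control, against 3.37 CPM in high glucose (1.84, edgeR adjusted p = 1.33e-11) and against 1.27 CPM in the mimic control (3.25, edgeR adjusted p = 4.03e-14). Among 9 BMP targets, 5 were lower in the inhibitor control than in high glucose and none higher (55.6%). Of all tested genes 79.5% were called there, 40.1% higher and 39.3% lower. Hey1 was at 2.10 CPM in the inhibitor control, against 30.5 CPM in high glucose (-3.86, edgeR adjusted p = 1.60e-16).

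**Figure D4:**
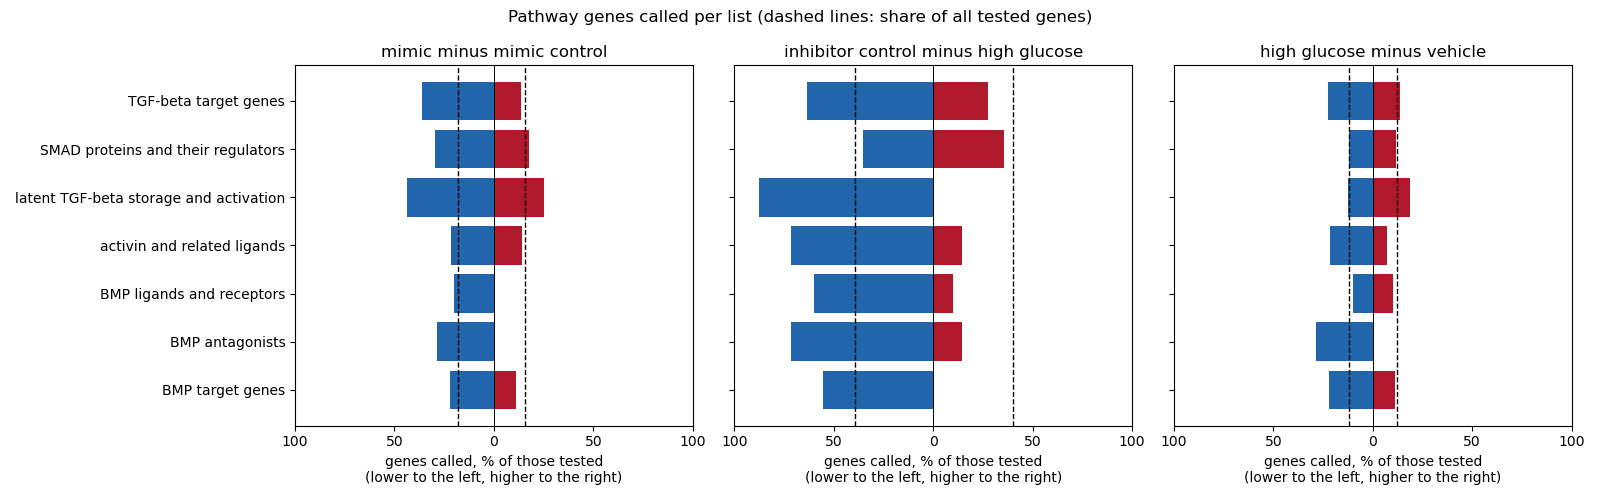
Share of the tested genes of each pathway list called higher (red, to the right) or lower (blue, to the left) at an edgeR adjusted p under 0.05, in 3 comparisons; dashed lines mark the share of all 15074 tested genes in each direction. Latency and activation genes show 7 lower and 4 higher of 16 with the mimic, and 14 lower of 16 in the inhibitor control against high glucose.

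The tested genes whose log2 CPM followed the 3 chosen genes most closely over the 18 libraries were taken from 9412 candidates. For Tgfb3 they were Mrc2 (Pearson r = 0.999), St6galnac6, Cd248, Pold4 and Notch3. Mrc2, a collagen receptor, averaged 16.4 CPM in mimic, 17.0 in mimic control, 29.8 in inhibitor, 30.4 in inhibitor control, 236.2 in high glucose and 233.8 CPM in vehicle libraries. For Inhbb they were Myl1 (r = 0.996), Pdgfrb, Col5a2, Mlec and Nsdhl, and Pdgfrb, a receptor of mesenchymal cells and one of the fibroblast markers, averaged 4.83 CPM under the mimic, 5.29 in its control, 26.3 under the inhibitor, 27.0 in its control, 31.9 in high glucose and 30.2 in vehicle. For Grem1 they were Eya1 (r = 0.993), Ro60, Lrrk2, Zfp260 and Acbd5. Eya1, a developmental cofactor, averaged 9.18 CPM under the mimic, 6.58 in its control, 20.4 under the inhibitor, 19.6 in its control, 19.8 in high glucose and 15.2 CPM in vehicle. The choice rests on Pearson's r: by Spearman's rho only 1 of the 5 nearest genes was the same for Tgfb3, 0 for Inhbb and 3 for Grem1, and among all candidates Mrc2 then ranked 200, the Inhbb genes 112 to 973 and Eya1 1. The points are libraries that fall into the 3 clusters named above, so these correlations are a description with no test.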

How the data were processed

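RNA was sequenced as stranded mRNA libraries with 150 nt paired reads, per the labels' protocols. Reads with more than 2 N bases were dropped, trimming used FASTX-Toolkit 0.0.13, reads under 16 nt were removed, alignment to GRCm39 was by HISAT2 (up to 4 mismatches) and only reads with a unique position entered the counting, as the protocols in the labels say. The authors deposited raw read counts per gene (29112 genes) and FPKM values (28907 genes). The sources used here do not name the counting program, the annotation or its strand setting. The submitters' processing notes also name DESeq2.

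The test was edgeR 4.0.16 (R 4.3.3) on the counts: filterByExpr by group (minimum count 10, minimum total 15) kept 15074 genes, the 10 members included. All 18 libraries, scaled by TMM, entered one quasi-likelihood fit with the group as its term (12 residual degrees of freedom). P-values were adjusted by Benjamini-Hochberg over all tested genes and called under 0.05. The code was checked on simulated counts. Alternatives used DESeq2 1.42.0 (adjusted p-values given as NA stayed out), limma 3.58.1, other scalings and filters, and each library left out. Between replicates, chi-square per degree of freedom was 4.37 to 26.1, above the value near 1 of a library sequenced again. Each library was therefore entered as a separate library. These values cannot tell separate cultures from separate preparations of the same culture. The highest, 26.1 and 24.3, involved mimic replicate 2. Same-numbered libraries deviated together with correlations of -0.17 to 0.10. The numbers gave no clear sign of pairing and were left out of the main fit, though such correlations cannot show that libraries were unpaired.

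The members and lists were chosen with earlier results of these data known. All members are named. From each list, called genes are named by size of change, provided the higher group averaged 5 CPM or more and the groups did not overlap, and for Tgfb3, Inhbb and Grem1 the 5 most similar genes; the text gives part of these, and 1 gene that met the rule is not reported here. Sites came from GENCODE M39 annotation on GRCm39.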

Additional observations from a re-analysis of the deposited data

Results flagged for a closer look

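The effect of the mimic differed from that of the inhibitor for Tgfbr1, by 0.53 on the log2 scale (edgeR adjusted p = 0.0220), and for Tgfbr3, by 0.40 (edgeR adjusted p = 0.0257). Both were singled out because the same kind of contrast, reagent against its own negative control, gave different effects in 2 pairs of groups. The mimic and the inhibitor are meant to act in opposite ways, and edgeR called no tested gene with the inhibitor. The differences lie close to the effects of the mimic alone, 0.57 for Tgfbr1 and 0.40 for Tgfbr3. Tgfbr1 was higher than its control in 3 of 3 mimic libraries and overlapped its control with the inhibitor, as did Tgfbr3. Mimic replicate 2 held the highest Tgfbr1 level of its group and the macrophage transcripts, and their part in the difference was not tested beyond leaving that library out, which gave 0.33 for Tgfbr1 and 0.40 for Tgfbr3.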

How the results depend on the processing

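Over 26 alternative settings, 1820 log2 fold changes of the 10 genes were recomputed. Of the 1092 that carry a test, 1043 kept their direction and call, 17 lost and 7 gained a call, 24 changed sign, and 1 kept its direction with no adjusted p from DESeq2. Of the 728 with no test, 27 moved by more than the spread between replicates and 21 changed sign. These sign changes were Inhbb in mimic minus mimic control (0.0055, with -0.10 to -0.0037 where it changed sign), in inhibitor minus inhibitor control (-0.012, with 0.0027 to 0.041) and in the difference of effects (0.017, with -0.091 to -0.0007), and Tgfb3 in the difference of effects (-0.055, with 0.0054 to 0.016). Every sign change among the tested values concerned a difference that was not called. In high glucose minus vehicle, Tgfb1 was -0.12 to 0.022 without single libraries, and Fst was -0.0008 and -0.0064 with limma on log2(FPKM + 1) and log2(FPKM + 0.1) and -0.14 to 0.15 without single libraries. In mimic minus mimic control, Tgfb1 was -0.044 to 0.047 without single libraries. Tgfb2 was -0.0073 with DESeq2 size factors, -0.0076 with the DESeq2 test and -0.0096 to 0.027 without single libraries. Tgfbr2 was 0.0095 with upper quartile scaling, 0.044 and 0.052 with limma on log2(FPKM + 1) and log2(FPKM + 0.1), and -0.066 to 0.0034 without single libraries. In inhibitor minus inhibitor control, single libraries left out gave -0.053 to 0.047 for Tgfb1, -0.14 to 0.0061 for Tgfb2, and -0.031 to 0.040 for Tgfbr3. For the mimic effect minus the inhibitor effect they gave -0.030 to 0.065 for Tgfb1 and -0.018 to 0.052 for Tgfbr2. The cause was not tested.

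In that last comparison the 2 members called became 1 with limma on log2(FPKM + 1) and 0 to 3 without single libraries. The 20 pathway genes called became 13 with upper quartile scaling, 10 with limma on log2(FPKM + 1), 10 with limma on log2(FPKM + 0.1) and 8 to 20 without single libraries. The counts of the other comparisons stayed within 1.5 times of their value under these settings. With the replicate block the pathway counts were 24 in place of 27 for high glucose, 38 in place of 39 for the mimic and 15 in place of 20 for the difference of effects, and no call among the 7 members changed; the labels do not say that the numbers pair libraries. Upper quartile scaling moved the median of all genes by 0.11 in inhibitor control minus mimic control, and limma on log2(FPKM + 0.1) by -0.14 in mimic control minus high glucose. At 19 to 81 reads, Fst is limited by depth.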
